A study of Caenorhabditis elegans with 12 samples.

Results

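The genes described here are the uterine lumen (ule) genes of the nematode Caenorhabditis elegans and their neighbours in the Y62H9A gene cluster. The 6 genes, chosen by name, are ule-1, ule-3, ule-4, ule-5, Y62H9A.3 and Y62H9A.4. Each carried 1 probe, so 6 of the 22370 probes in the deposited table were taken, out of 8757 probes with a gene name. The choice was made with the response of these genes to lithium already known, so their own differences between the groups are given as a description and not as a test. WBcel235, the annotation used for names and gene order, lists 5 ule genes; ule-2 carried no named probe and was not analysed here.

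Wild-type (N2) hermaphrodites were grown from the egg at 20 °C and then held for 48 h at 25 °C, either on plain nematode growth medium (control, 6 samples) or on the same medium with 10 mM lithium chloride (LiCl, 6 samples). Each sample was 50 picked worms, and per the design text the replicates were grown and harvested separately. Amplified RNA of each sample, labelled with Cy5, was hybridised to its own 2-colour array against Cy3-labelled RNA from a pool of N2 worms of mixed stages. A value is the deposited log ratio of a probe, taken as sample over reference; this direction is likely from the dyes and not stated, and turned round every lower value here would read as higher. The log base and any scaling of the arrays are not stated either, so differences are given in log ratio units and not as fold changes.

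The ule genes take their name from proteins found in the uterine lumen of the adult hermaphrodite, the space in which fertilised eggs are held before they are laid. Their products are secreted proteins that build up in the uterus as worms age. On the X chromosome 3 of the genes studied here lie in 1 row with stha-3. In WBcel235 the order is Y62H9A.3, Y62H9A.4, stha-3 and ule-5, with no other annotated gene between them. The other ule genes are scattered, ule-1 on chromosome I, ule-4 on chromosome IV and ule-3 on chromosome V. No function is given for Y62H9A.3 and Y62H9A.4 in the annotation used.

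Lithium-treated worms had lower log ratios for 4 of the 6 genes, namely the X-linked Y62H9A.4, Y62H9A.3 and ule-5 and the chromosome V gene ule-3. The differences, LiCl minus control, lay between -2.19 and -1.65 in these 4 genes. For ule-1 and ule-4 they were 0.13 and -0.19, and the groups overlapped. The X-linked neighbours thus had a median difference of -1.91, and the 3 ule genes elsewhere a median of -0.19 with a range from -1.65 to 0.13, beside 0.019 over all probes.

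In the neighbourhood of ule-5, Y62H9A.4 showed the largest of the 6 differences. Its control log ratios were -0.81, -1.10, -1.33, -1.41, -1.09 and -0.66, and its LiCl log ratios -2.91, -3.51, -3.71, -2.81, -3.66 and -2.93, in the order of replicates 1 to 6. Every LiCl array lay below every control array, with 1.41 units between the nearest arrays of the groups. The control mean was -1.07 ± 0.29 (SD, n = 6) and the LiCl mean -3.26 ± 0.41 (SD, n = 6), which differ by -2.19 ± 0.21 (moderated SE). Of the 22370 probes, 14 had a more negative difference.

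Y62H9A.3, the gene beside it, had control log ratios of -0.70, -1.26, -1.10, -1.44, -0.68 and -0.76 and LiCl log ratios of -2.90, -2.43, -3.50, -2.70, -3.42 and -2.50. The groups did not overlap and were 0.99 units apart at their nearest arrays. Control worms averaged -0.99 ± 0.32 (SD, n = 6) and LiCl worms -2.91 ± 0.46 (SD, n = 6), and the difference was -1.91 ± 0.23 (moderated SE).

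For ule-5 the control log ratios were -0.36, -0.58, -0.34, -0.64, -0.63 and -0.07, close to the reference RNA. The LiCl log ratios were -2.14, -2.11, -2.61, -1.54, -2.68 and -1.83, all below the controls by at least 0.90 units. The mean of the controls was -0.44 ± 0.22 (SD, n = 6) and that of the LiCl arrays -2.15 ± 0.44 (SD, n = 6), with a difference of -1.72 ± 0.21 (moderated SE).

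Among the ule genes outside this neighbourhood, ule-3 on chromosome V followed the same course. Its control log ratios were -0.75, -1.44, -1.06, -1.38, -0.96 and -0.81, and its LiCl log ratios -2.07, -2.84, -3.14, -2.27, -3.61 and -2.35. All LiCl arrays lay below all control arrays, the nearest by 0.62 units. The group means were -1.07 ± 0.29 (SD, n = 6) and -2.71 ± 0.59 (SD, n = 6), and differed by -1.65 ± 0.26 (moderated SE), and 74 probes had a more negative one.

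ule-1, on chromosome I, stood well above the reference in both groups. Control log ratios were 2.00, 1.51, 2.14, 2.06, 2.13 and 1.95, and LiCl log ratios were 2.57, 1.37, 1.61, 2.08, 2.80 and 2.12. The LiCl arrays spread on both sides of the controls, and the difference was 0.13 ± 0.24 (moderated SE). Its sign was not stable: it was -0.23 after quantile normalization and -0.02 without LiCl replicate 5.

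ule-4, on chromosome IV, was also above the reference on every array. Control log ratios were 1.69, 0.81, 0.68, 0.60, 1.22 and 1.02, LiCl log ratios were 0.82, 0.67, 0.47, 1.28, 0.92 and 0.74, and the groups overlapped over most of their range. The difference was -0.19 ± 0.21 (moderated SE). The SD was larger in LiCl than in controls for 5 of the 6 genes, the exception being ule-4 with 0.27 against 0.40. The share of all probes with a larger SD in LiCl was not counted, so this is not read as a trait of these genes.

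**Figure D1:**
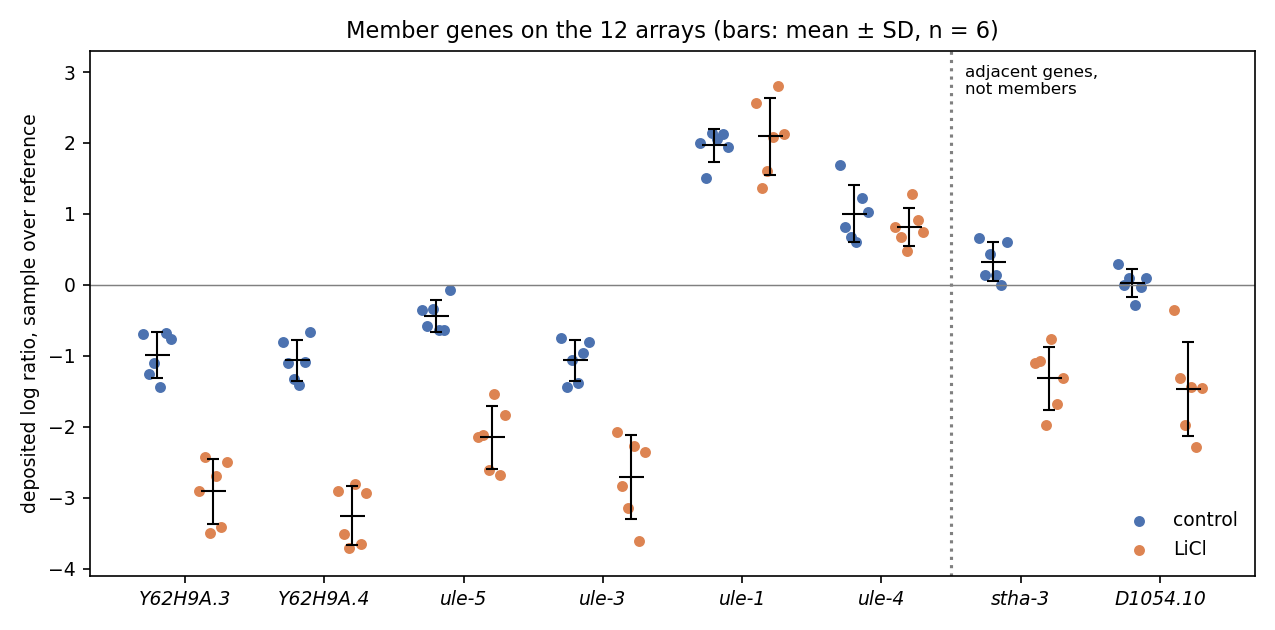
Deposited log ratio (vertical axis) of the 6 member genes and of 2 adjacent genes, stha-3 and D1054.10, with 1 point per array, control in blue and LiCl in orange; bars are the mean and SD of 6 arrays. The LiCl points lie below all control points in Y62H9A.3, Y62H9A.4, ule-5, ule-3 and both adjacent genes, and the groups overlap in ule-1 and ule-4.

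Across the whole table, limma with Benjamini-Hochberg adjustment placed 8% of probes past an adjusted p of 0.05, 3.5% with LiCl lower and 4.5% with LiCl higher, and in 3% the LiCl arrays lay wholly below the controls. Of the 6 genes, 4 passed in the lower direction and the same 4 had groups that did not overlap. Since the genes were picked with this contrast in view, these counts describe the choice. The worms were taken whole, so fewer cells of a type and less RNA per cell cannot be told apart in any of these values.

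**Figure D2:**
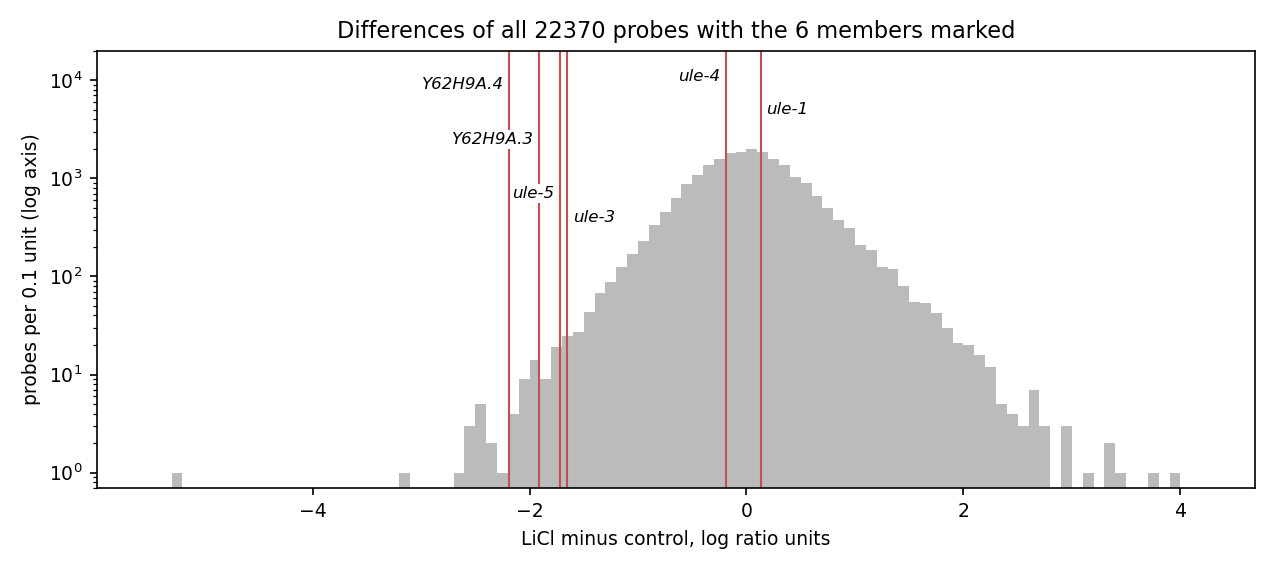
Histogram of the difference LiCl minus control (horizontal axis, log ratio units) over all 22370 probes, with the number of probes per bin on a log axis and red lines at the 6 member genes. Y62H9A.4, Y62H9A.3, ule-5 and ule-3 lie in the lower tail between -2.19 and -1.65, while ule-4 (-0.19) and ule-1 (0.13) lie near the centre.

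The level against the mixed-stage reference was tested over all probes in the same limma fit, as the mean of both groups. By this test 60.4% of all probes differed from the reference, 29.2% below it and 31.2% above it. ule-1 was above it by 2.03 ± 0.12 (SE, n = 12, adjusted p = 8.18e-09) and ule-4 by 0.91 ± 0.10 (SE, n = 12, adjusted p = 4.09e-06). For Y62H9A.3, Y62H9A.4, ule-5 and ule-3 the mean of both groups also carries their lower LiCl values, for which they were chosen, so no test of their level is given. In controls these 4 genes lay below 0 on all 6 arrays, with the means given above, from -0.44 in ule-5 to -1.07 in Y62H9A.4 and ule-3.

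The Y62H9A clone holds 16 annotated genes, of which 13 carried a named probe, 10 of them not among the genes chosen. The measured genes along this part of the X chromosome could thus be set beside the members. The gene between Y62H9A.4 and ule-5, stha-3 (Y62H9A.5), was lower in LiCl as well. Its control log ratios were 0.66, 0.14, 0.43, 0.14, 0.00 and 0.60 and its LiCl log ratios -1.10, -1.07, -1.97, -0.77, -1.68 and -1.32. All control arrays were at or above 0 and all LiCl arrays below it. The difference was -1.65 ± 0.22 (SE, limma adjusted p = 0.000707), and it passed under all 22 alternatives, with adjusted p from 0.000557 to 0.00952.

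The next measured gene on either side of the run did not pass the test. Y62H9A.2, which adjoins Y62H9A.3, had a difference of 0.16 (95% interval -0.69 to 1.00, adjusted p = 0.858). Its control arrays ran from -1.65 to 1.30 and its LiCl arrays from -0.13 to 0.38. Y62H9A.7, which adjoins ule-5, had a difference of -0.14 (95% interval -0.92 to 0.64, adjusted p = 0.857), with control arrays from 0.17 to 2.13 and LiCl arrays from -0.35 to 1.54. Neither interval reaches the -1.65 of stha-3.

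The difference between stha-3 and each of these flanking genes was tested directly, as stha-3 minus flank on each array. Against Y62H9A.2 it went from 0.36 ± 1.22 (SD, n = 6) to -1.45 ± 0.41 (SD, n = 6), and against Y62H9A.7 from -0.75 ± 0.71 (SD, n = 6) to -2.25 ± 0.81 (SD, n = 6). Both changes, -1.80 and -1.50, passed an exact two-sided permutation test over 924 assignments (p = 0.00866 and 0.00649, adjusted p = 0.00866 for each over the 2 tests). In both contrasts the groups overlapped. The lowest control was -1.3 and the highest LiCl array -1.08 against Y62H9A.2, and -2.0 and -0.72 against Y62H9A.7. The flanking genes were taken for their place beside the run, after the values of stha-3 and of both flanks were seen. The p-values do not allow for that choice, nor does the adjustment over the 2 tests.

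Over the 9 measured Y62H9A genes outside the run, differences lay between -0.29 (Y62H9A.8) and 0.51 (Y62H9A.12), with a median of 0.06. None passed the limma test, and in all 9 the groups overlapped. Unadjusted p-values in these 9 were 0.387 or higher. Their arrays were more variable than those of the run, with moderated SE from 0.35 to 0.72 against 0.21 to 0.23, so smaller changes would have been missed. Spot intensities were not analysed, so whether these 9 probes lay above background was not tested. The edges of the run are therefore not settled by these values. Y62H9A.1, Y62H9A.10 and Y62H9A.16 lacked a value on LiCl replicate 6, and Y62H9A.10 also on control replicate 6.

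**Figure D3:**
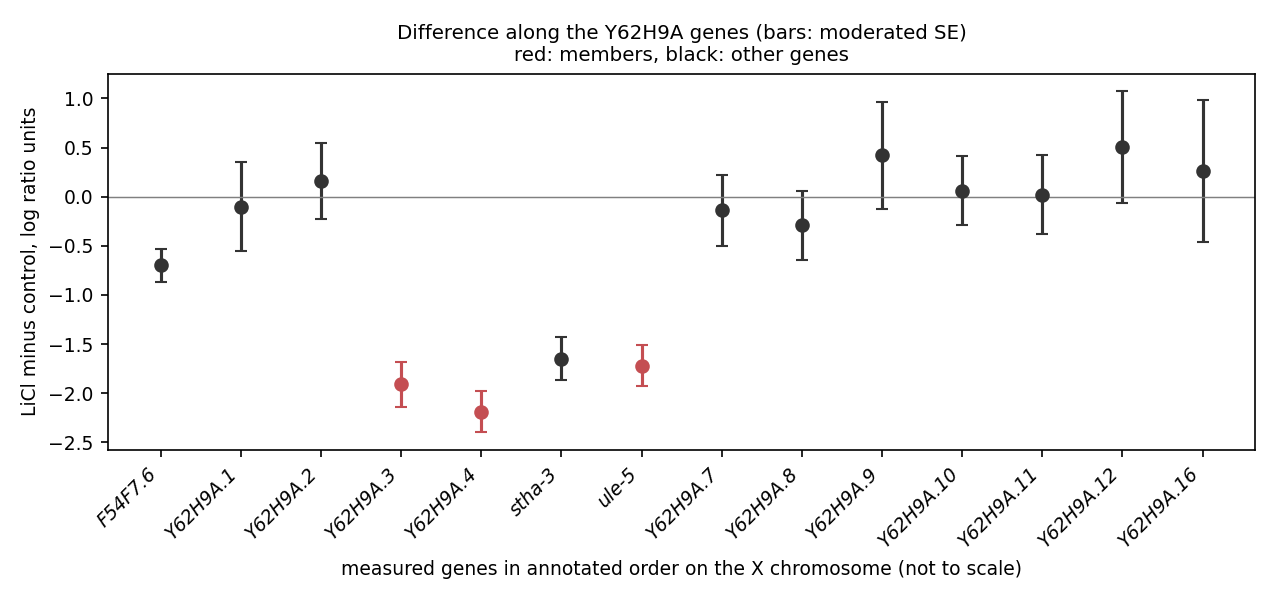
Difference LiCl minus control (vertical axis, log ratio units, bars are moderated SE) for the measured genes around ule-5 in their annotated order on the X chromosome, not to scale; members are red and other genes black. The 4 adjacent genes Y62H9A.3, Y62H9A.4, stha-3 and ule-5 lie between -2.19 and -1.65, F54F7.6 lies at -0.70, and the other Y62H9A genes lie between -0.29 and 0.51.

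Runs of this kind were looked for in all named genes, as a description. In WBcel235 order there were 726 stretches of 4 adjacent protein-coding genes that all had a named probe. Genes called lower in LiCl, 238 in this order, formed 7 runs of 2 and no run of 3, and the run from Y62H9A.3 to ule-5 was the single run of 4. In that run Y62H9A.3, Y62H9A.4 and ule-5 were chosen with their response known, so their calls describe the choice. Genes called higher, 428 in this order, formed 14 runs of 2 and 3 runs of 3. With non-overlap of the groups in place of the adjusted p, the run from Y62H9A.3 to ule-5 was again the single run of 4 among genes lower in LiCl. That repeat uses the same values a second time.

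Among the other genes near ule-5, F54F7.6, which lies 4 genes before Y62H9A.3, was lower by a smaller amount (-0.70 ± 0.17, SE, limma adjusted p = 0.0248). Its controls lay between 1.79 and 2.14 and its LiCl arrays between 0.93 and 1.86, overlapping slightly. Its adjusted p reached 0.0556 when arrays were left out singly, and the call was lost without control replicate 4, 5 or 6 or LiCl replicate 3 or 6. Y62H9A.1 and Y62H9A.2, between this gene and the run, did not pass.

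The other ule genes were examined in the same way, with the 10 protein-coding genes on each side. Next to ule-3 on chromosome V, D1054.10 was lower in LiCl. With ule-3, which was chosen with its response known, it forms one of the 7 runs of 2. Its control log ratios were 0.30, 0.00, 0.09, -0.29, -0.03 and 0.10, and its LiCl log ratios -0.35, -1.31, -1.97, -1.44, -2.28 and -1.46. The groups did not overlap, although LiCl replicate 1 came within 0.06 units of the lowest control. The difference was -1.50 ± 0.27 (SE, limma adjusted p = 0.00537), and it passed under all 22 alternatives, with adjusted p from 0.000639 to 0.0169.

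Of the 7 measured neighbours of ule-3, D1054.10 alone passed, and the median of the 7 was 0.37. The gene on the other side of ule-3 had no named probe and was not analysed here. Of 6 measured neighbours of ule-1, Y37E3.17 passed (-0.65 ± 0.15, SE, limma adjusted p = 0.0225). It missed the threshold without control replicate 2 or 6, with an adjusted p of up to 0.0549. Of 10 measured neighbours of ule-4 none passed by limma, and their median difference was -0.52. An unadjusted limma p under 0.05 was seen in 3 of them, beside 4 of 7 near ule-3, 2 of 6 near ule-1 and 2 of 11 near ule-5. No share of all probes is given for these counts, so they are not read as a result. Over all probes 8% passed by limma and the median difference was 0.019, so 1 call among so few neighbours is not read as a result. The most negative differences near these genes, -1.08 near ule-1 and -0.89 near ule-4, were smaller in size than those of stha-3 and D1054.10.

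Arrays of the same group also differed among themselves, and this spread was not used to choose the genes. Within the LiCl group, replicates 3 and 5 had the lowest ule-5 values (-2.61 and -2.68), and the same replicates were lowest in Y62H9A.3, Y62H9A.4, stha-3, ule-3 and D1054.10. The correlations among Y62H9A.3, Y62H9A.4, ule-5 and ule-3 were positive in all 12 cases, from 0.47 to 0.91 in controls and from 0.61 to 0.92 in LiCl. Some were not stable when the 2 arrays farthest from the median of 1 gene of the pair were left out. This kept 4 arrays and can lower r by itself. The 12 values ran from -0.87 to 0.91 without these arrays, and 9 of the 12 stayed positive. In LiCl, Y62H9A.3 with ule-3 then went from 0.66 to -0.87 and Y62H9A.3 with Y62H9A.4 from 0.61 to -0.64. ule-4 was positively correlated with the 4 genes in all 8 cases, from 0.21 to 0.82 with a median of 0.60. The 8 correlations of ule-1 with them ran from -0.33 to 0.51 with a median of 0.04. Without the 2 farthest arrays those of ule-4 ran from -0.43 to 0.92, with 7 of 8 positive. Those of ule-1 then ran from -0.89 to 0.98, with 4 of 8 positive, so this contrast is not firm.

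With 6 arrays a group, none of the 30 correlations passed an exact permutation test after adjustment over all 30 (adjusted p at least 0.208), and 4 had an unadjusted p under 0.05. The highest was between Y62H9A.4 and ule-3 in LiCl (Pearson r = 0.92, exact permutation p = 0.0208, adjusted p = 0.208, Spearman rho = 0.89, exact permutation p = 0.0333, adjusted p = 0.44). It was 0.91 without the 2 arrays farthest from the median of Y62H9A.4. In controls Y62H9A.3 and ule-3 had r = 0.91 (exact permutation p = 0.0167, adjusted p = 0.208, rho = 0.77, exact permutation p = 0.103, adjusted p = 0.44), and 0.70 without the 2 farthest arrays. For ule-5 and Y62H9A.4 in LiCl r was 0.87 (exact permutation p = 0.0167, adjusted p = 0.208, rho = 0.77, exact permutation p = 0.103, adjusted p = 0.44), and 0.77 without the 2 farthest arrays. The remaining one joined Y62H9A.3 with ule-4 in controls (r = 0.82, exact permutation p = 0.0375, adjusted p = 0.281, rho = 0.89, exact permutation p = 0.0333, adjusted p = 0.44), and was 0.80 without the 2 farthest arrays. In controls the r of ule-5 with Y62H9A.4 was 0.70 and fell to 0.02 without the 2 farthest arrays, so it was not stable to leaving them out.

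**Figure D4:**
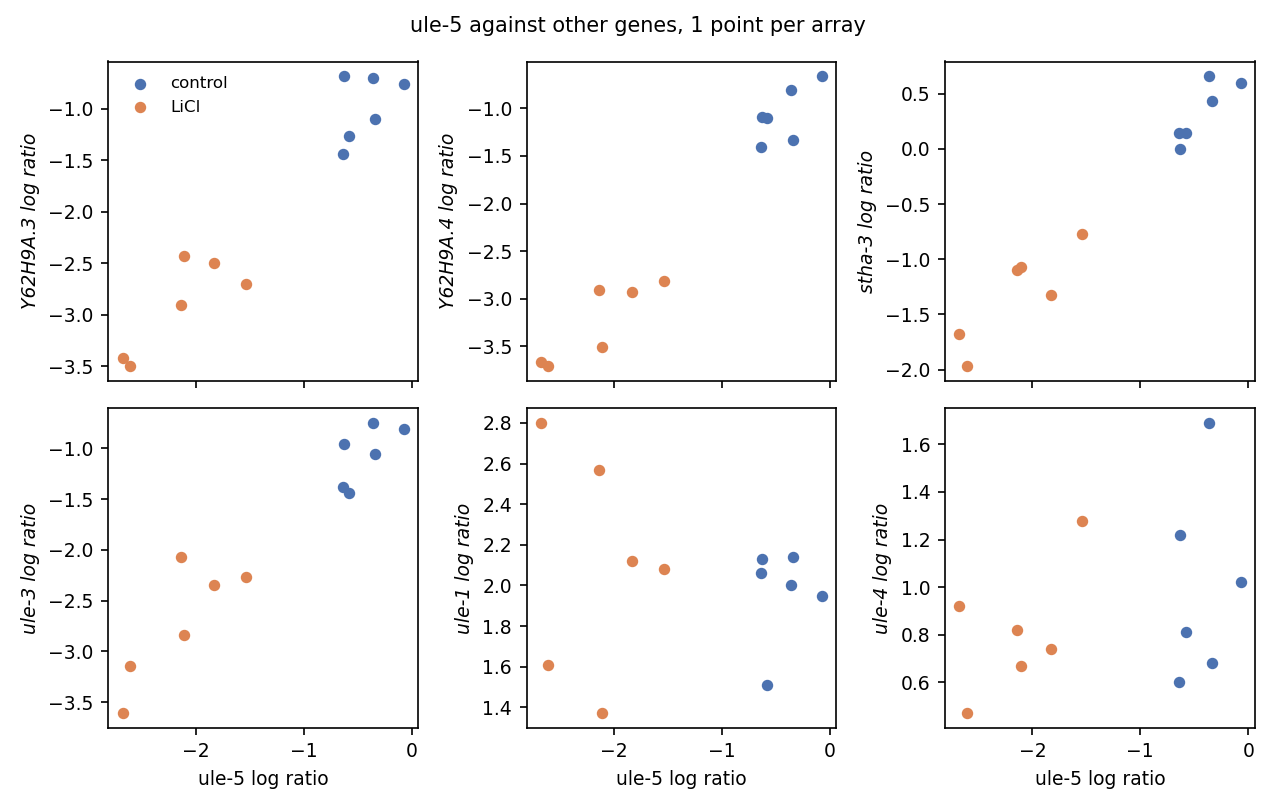
Deposited log ratio of ule-5 (horizontal axis) against that of Y62H9A.3, Y62H9A.4, stha-3, ule-3, ule-1 and ule-4 (vertical axes, each with its own range), with 1 point per array, control in blue and LiCl in orange. Within the LiCl arrays r with ule-5 was 0.82, 0.87, 0.87 and 0.81 for the first 4 genes and -0.15 and 0.59 for ule-1 and ule-4. Within the control arrays it was 0.47, 0.70, 0.86 and 0.67 for the first 4 genes and 0.11 and 0.21 for ule-1 and ule-4. None passed the exact permutation test after adjustment. The stha-3 pairs were adjusted in a separate family of 24 (exact permutation, adjusted p = 0.294 in both groups).

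To place this shared spread, the mean deviation of ule-5, Y62H9A.3 and Y62H9A.4 from their group means was set against that of the 8520 fully measured named probes of other genes over the 12 arrays. Over all 21839 fully measured probes the median correlation was 0.018 and the 99th percentile 0.736. ule-3 reached 0.867, stha-3 0.832, D1054.10 0.61, ule-4 0.544 and ule-1 -0.054. The named genes most like the 3 X-linked genes were C02F12.5 (0.928), ZK593.3 (0.88), T22A3.6 (0.87), T19D12.4 (0.859) and C35B1.5 (0.851). These 5 genes did not pass the test between the groups, with differences from -0.34 to 0.34.

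For the mean of ule-1, ule-3 and ule-4 the most similar named genes were C32E12.4 (0.911), K08F11.1 (0.896), C02B8.6 (0.857), flwr-1 (0.849) and F26A3.4 (0.846). F26A3.4 was higher in LiCl (0.84 ± 0.18, SE, limma adjusted p = 0.0136), and the other 4 did not pass. For this second mean the 99th percentile over all fully measured probes was 0.712. Of the genes that make it up, ule-4 reached 0.76, ule-3 0.741 and ule-1 0.63. ule-1 thus lay below that percentile, and the mean is not read as a course shared by these ule genes. All these likenesses are descriptions over 12 arrays that share a reference RNA and amplification protocol.

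Markers of the tissues around the uterus could not be set beside these values. Of 10 marker lists, those for the uterus, spermatheca, sheath and vulva, for yolk, for eggshell, for the intestine and for adult and larval cuticle had no named probe. The other 4 held 17 measured genes, and 4 of these passed, beside 8% of all probes. Lower in LiCl were memi-2, a maternal gene acting at the second meiotic division (-0.63 on 1 of its 2 probes), and the sperm gene spe-57 (-0.88, with no value on control replicate 1). Higher were the sperm gene spe-51 (2.07) and the pharyngeal gene phat-8 (1.01). Of these calls 3 were close to the threshold: spe-51, spe-57 and phat-8 passed in 13 of 22, 10 of 21 and 12 of 22 alternatives, and with a replicate block spe-57 (limma adjusted p = 0.0593) and phat-8 (0.0697) did not pass. Leaving out 1 array lowered the count to 1 without control replicate 3 or 4 or LiCl replicate 1 or 6, while memi-2 passed in all 21 of its alternatives. The medians were -0.39 over 5 maternal and oocyte probes, 0.01 over 10 sperm genes, 0.69 over 2 pharyngeal genes and 0.12 over 2 saposin-like genes, beside 0.019 over all probes. The 5 maternal and oocyte probes belong to memi-1, memi-2 and memi-3 alone. The rest of the 18 genes on that list had no named probe, so its median does not stand for maternal RNA at large. The part of any tissue's amount in the lower ule and Y62H9A values was not tested. Probe sequences were not used here, so whether related transcripts of neighbouring genes share signal was not tested either.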

How the data were processed

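The deposited table gives, for each of 22370 probes and 12 arrays, a log ratio that the authors had already processed. These deposited values were used as given, with log2 the likely base (base, normalization and software: not given in the sources used here). Array medians lay between 0.0181 and 0.0435, and 16 to 150 probes had no value on an array. Interquartile ranges were nearly equal, from 1.3319 to 1.3443. The 95th percentile was higher on LiCl arrays (1.5933 to 1.8269) than on control arrays (1.457 to 1.5585). The number of arrays sets the precision; spot intensities were not analysed here.

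Probe names came from the platform annotation and were updated by gene identifier to WBcel235, which matched 8724 of 8757 named probes. Its table served for names, chromosomes and gene order, and no coordinates are given. Groups were compared with limma 3.58.1 in R 4.3.3 (lmFit, eBayes, two-sided, group coded to sum to zero), and p-values were adjusted over all probes. A second coefficient tested the mean of both groups against 0, which still holds part of any difference between them. Correlations within groups used an exact permutation over 720 pairings, in which the smallest p is 0.00139.

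The genes and lists were chosen with earlier results of these data known. Named were all members, all measured ule and Y62H9A genes, up to 4 called genes per list or neighbourhood, and the 5 most similar named probes. On 22370 simulated probes with 50 shifted by each size, the LiCl against control fit recovered 30% at 1, 70% at 2 and 98% at 3 log ratio units and made 2 false calls among 101. Same-numbered arrays deviated together (correlation over 0.1) in 1 of 6 pairs. For 3 of the 6 LiCl arrays the best-matching control array had the same number. The numbers were not treated as pairs in the main fit, and the replicate block below treats them so. Alternatives were other normalizations, variance models, array weights, filters, thresholds, a replicate block and leaving out arrays.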

Additional observations from a re-analysis of the deposited data

Results flagged for a closer look

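In ule-1, control replicate 2 had a log ratio of 1.51, whereas the other 5 control arrays lay between 1.95 and 2.14. The gap made up 0.711 of the range of the group. It was the single such array among 38 groups of the genes described, where chance gives about 1 in 20, or 1.9.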

How the results depend on the processing

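The levels of ule-1 and ule-4 against the reference kept their sign and passed under all alternatives with a test. The differences of Y62H9A.3, Y62H9A.4, ule-5, ule-3 and ule-4 kept their sign, and ule-1 turned to -0.23 after quantile normalization and to -0.02 without LiCl replicate 5 (-0.02 to 0.27 without 1 array). The median of the X-linked members ranged from -2.01 to -1.79 and that of the other ule genes from -0.28 to -0.05. The count of changed probes (1789) was 622 without the lower part of probes by SD, 2836 at an adjusted p under 0.10 and 649 under 0.01. Leaving out 1 array gave 1181 to 1600, the lowest without control replicate 4. Probes off the reference numbered 13511, and 4210 under the SD filter, which tests fewer probes. With a replicate block 1393 probes changed, and the fixed lists had 2 called genes in place of 4. They had 1 under the SD filter and 1 to 3 without 1 array; control replicates 3 and 4 and LiCl replicates 1 and 6 each gave 1. The block ended the calls of spe-57 and phat-8, and stha-3, D1054.10, F54F7.6, Y37E3.17, memi-2, spe-51 and F26A3.4 still passed (adjusted p up to 0.0486). Positive correlations among members numbered 22 to 29 of 30 without 1 array, beside 26. The tests of stha-3 against Y62H9A.2 and Y62H9A.7 gave exact permutation p-values up to 0.0152 and 0.0173. The list alternatives, the flank tests, the runs and the genes stha-3 and D1054.10 were added after seeing the data.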
